A study of Mus musculus with 39 samples.

Results

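The libraries described here are mouse brain RNA samples from animals given 1 of 2 antisense oligonucleotides (ASOs) against Tmem106b, the 3 libraries labelled ASO 1 and the 5 labelled ASO 4, which together are 8 of the 39 libraries in the series. They were taken by their group label alone. The pair was set side by side because the libraries of ASO 1 held the least and those of ASO 4 the most Tmem106b RNA among the 4 numbered ASOs. The title of the study places the work in the setting of progranulin (GRN) haploinsufficiency, in which lowering TMEM106B has been considered as a rescue. ASO 1 carries the treatment code RTR114030 and ASO 4 the code RTR113792, and 5 saline libraries serve as the untreated level. No strain, genotype, age, sex, dose, route, interval or brain region, and no sequence or chemistry of either ASO, is given in the sources used here, so the groups are known to differ only by what was given. The labels do not say whether the libraries of a group come from separate animals. The p-values below therefore measure the spread between libraries within the 9 groups of all 39 libraries, fitted together. This spread may be partly technical.

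An ASO of the gapmer kind pairs with a complementary RNA, and RNase H1 then cuts the RNA strand of that duplex. Pre-mRNA in the nucleus can be cut as well as spliced mRNA, and ASOs of unlike sequence against the same target are commonly run side by side. Tmem106b codes for a membrane protein of late endosomes and lysosomes, and variants near human TMEM106B modify the risk of frontotemporal dementia with GRN mutations. Neurons also carry a set of immediate early genes, such as Nr4a1, Fos and Egr1, which are transcribed within minutes of calcium or cyclic AMP signals and whose RNAs are short-lived.

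Counts of reads over exons totalled 34.6 to 36.1 M in the ASO 1 libraries, 19.7 to 38.5 M in the ASO 4 libraries and 31.1 to 35.8 M in the saline libraries. Levels are given as CPM, a gene's counts relative to a fixed library total after TMM scaling, and are not corrected for gene length. The 12 pan-neuronal marker genes summed to between 9183 and 10057 CPM in ASO 1, between 9920 and 10662 CPM in ASO 4 and between 9711 and 10283 CPM in saline, and the 22 myelin genes to between 10406 and 11336 CPM in ASO 1, between 10256 and 12137 CPM in ASO 4 and between 9235 and 11685 CPM in saline, so markers of the labelled tissue were present. The libraries differed in RNA of hypothalamic genes. Pmch, the precursor of melanin-concentrating hormone made in the lateral hypothalamus, stood at 13.5, 38.6 and 0.32 CPM in ASO 1 and at 0.29, 0.21, 0.55, 38.2 and 22.8 CPM in ASO 4, against 0.31, 1.27, 0.35, 0.93 and 0.47 CPM in saline. Replicates 1 and 2 of ASO 1 and replicates 4 and 5 of ASO 4 were thus above 5 CPM and no saline library was. Summed over the 14 hypothalamic genes tested, ASO 1 had 67.7, 232.9 and 89.7 CPM. ASO 4 had 47.6, 68.7, 25.6, 209.5 and 132.5 CPM, and saline had 70.9 to 116.9 CPM. By this sum, ASO 1 replicate 1 lay below replicate 3 and below every saline library. The split at 5 CPM rests on Pmch alone. The 14 striatal marker genes summed to 2791, 3079 and 3743 CPM in ASO 1 and to 4431, 4002, 4137, 2872 and 2727 CPM in ASO 4. The 4 libraries above 5 CPM of Pmch thus held the least striatal RNA. The counts of genes past the threshold are given below with and without these libraries, and list counts where they changed.

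Tmem106b, on chromosome 6 from 13069759 to 13089269 on the forward strand of GRCm38, was measured at 43.9, 62.2 and 53.7 CPM in ASO 1 and at 105.8, 107.7, 112.4, 120.045 and 118.7 CPM in ASO 4, against 214.5, 186.8, 171.2, 195.5 and 191.7 CPM in saline. The 3 groups did not overlap. The mean was 53.3 ± 9.14 CPM in ASO 1 (SD, n = 3) and 112.9 ± 6.38 CPM in ASO 4 (SD, n = 5), against 191.9 ± 15.6 CPM in saline (SD, n = 5). ASO 1 libraries stood 52.8% below ASO 4 libraries, a log2 fold change of -1.08. The log2 fold change against saline was -1.85 for ASO 1 and -0.77 for ASO 4. As the pair was chosen on this gene, these values describe the groups and no test is attached to them. In bulk RNA, fewer cells of a type and less RNA per cell cannot be told apart, here or for any gene below.

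The other members of the family and progranulin did not pass the test. Tmem106c, a paralogue, had 36.4, 42.4 and 39.6 CPM in ASO 1 and 38.6, 38.9, 36.5, 38.7 and 42.7 CPM in ASO 4. Its log2 fold change of 0.02 had a 95% interval from -0.10 to 0.13. Tmem106a, the other paralogue, had a mean of 2.59 ± 0.471 CPM in ASO 1 and 2.64 ± 0.671 CPM in ASO 4 (SD, n = 3 and 5), with a log2 fold change of -0.05 and an interval from -0.43 to 0.34. Grn, which codes for progranulin, had 146.2, 111.2 and 104.2 CPM in ASO 1 and 105.4, 101.5, 114.1, 96.8 and 135.4 CPM in ASO 4. The groups overlapped, and the log2 fold change was 0.12 ± 0.116 (SE; interval -0.11 to 0.35; edgeR adjusted p = 0.837). Grn averaged 89.1 ± 8.84 CPM in saline (SD, n = 5), below both ASO groups. Against these shared saline libraries its log2 fold change was 0.44 in ASO 1 and 0.31 in ASO 4. Neither passed (edgeR adjusted p = 0.0996 and 0.353). Per length, Tmem106c ran at 19.4, 23.1 and 21.2 RPKM and Tmem106b at 6.36, 9.21 and 7.83 RPKM in ASO 1, while in saline Tmem106b ran at 24.8 to 30.8 RPKM and Tmem106c at 18.6 to 20.3 RPKM.

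Across all 19246 genes tested, 85 differed between ASO 1 and ASO 4 at an edgeR adjusted p under 0.05, which is 0.442% of them. Of these, 47 (0.244%) were higher in ASO 1 and 38 (0.197%), Tmem106b included, were lower. The libraries of the groups did not overlap for 82 of the 85, against 4.59% of all genes tested. The same libraries chose the 85, so this separation is no further support for them. The changes were mostly small. The median log2 fold change was 0.44 among the 47 and -0.33 among the 38, against 0.00 over all genes, and 3 genes each way (Nr4a1, Stmnd1 and Nr4a3 higher, Nrxn3, Tmem106b and Pcdh9 lower) changed by 2-fold or more. Of these, Stmnd1 was scarce, at a mean of 0.786 CPM in ASO 1 and 0.346 CPM in ASO 4, and passed in 7 of the 17 settings tried. The count moved with which libraries were kept: 5 genes passed without the libraries above 5 CPM of Pmch, which leaves 1 ASO 1 library, and 13 passed among those libraries only, while 37 passed without ASO 1 replicate 1 and 51 without ASO 1 replicate 2. Each of the 85 kept its direction in those settings and in the others tried, 17 in all. Where the groups did not overlap, leaving libraries out could hardly reverse a gene, so the kept direction is a description.

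**Figure D1:**
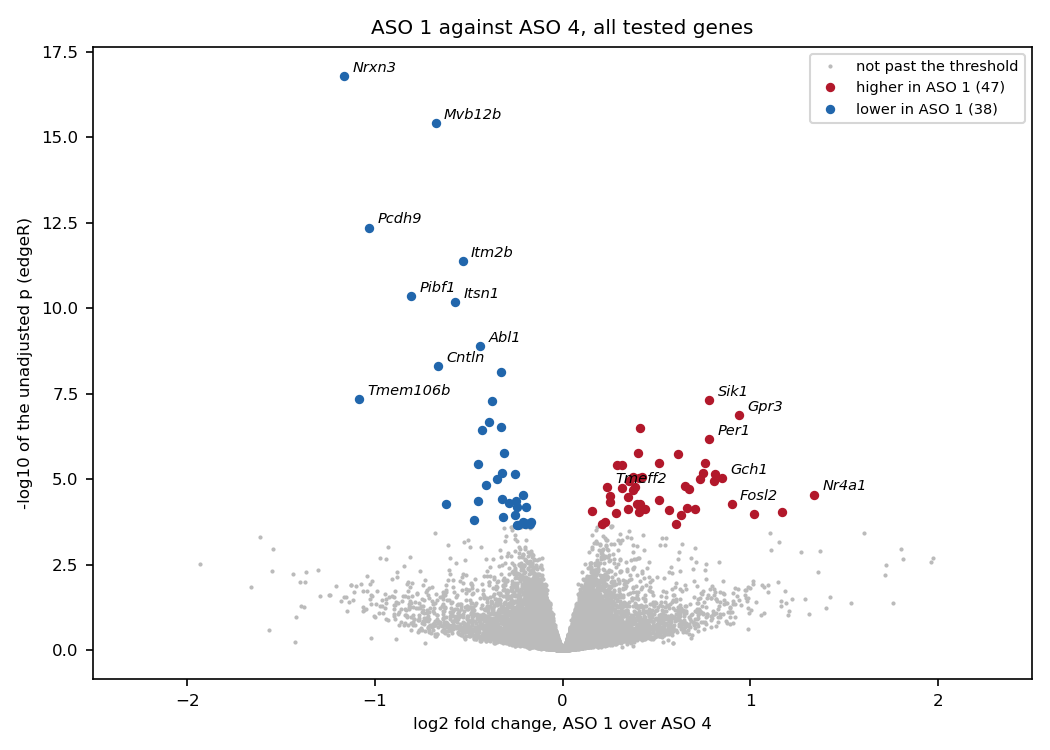
Each point is 1 of the tested genes, with the log2 fold change of ASO 1 over ASO 4 on the x axis and -log10 of the unadjusted edgeR p on the y axis; 2 genes, neither past the threshold, lie beyond the axis limit of 2.5. Red points are the 47 genes higher in ASO 1 and blue points the 38 lower; the smallest p-values, from Nrxn3 to Cntln, belong to genes lower in ASO 1, and Nr4a1 has the highest log2 fold change of those past the threshold.

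Of the genes lower in ASO 1, Nrxn3 and Pcdh9 fell furthest after Tmem106b was set aside. Nrxn3 codes for neurexin 3, a presynaptic adhesion molecule that binds neuroligins across the synaptic cleft. It had 81.5, 87.8 and 87.1 CPM in ASO 1 and 186.9, 198.0, 189.0, 194.9 and 187.7 CPM in ASO 4, against 198.4 to 225.4 CPM in saline. No ASO 1 library came near the other groups. Nrxn3 fell by 1.16 ± 0.0771 on the log2 scale relative to ASO 4 (SE; edgeR adjusted p = 3.03e-13), the smallest p of any gene tested. Pcdh9, a non-clustered protocadherin of the delta family, had 55.5, 69.0 and 61.5 CPM in ASO 1 and 118.5, 118.5, 129.1, 137.5 and 130.6 CPM in ASO 4. It fell by 1.03 ± 0.0955 (SE; edgeR adjusted p = 2.77e-09), again without overlap. Against saline, Nrxn3 changed by -1.29 in ASO 1 and -0.13 in ASO 4 and Pcdh9 by -1.16 in ASO 1 and -0.13 in ASO 4, both comparisons sharing the saline libraries. ASO 4 thus lay at -0.77 for its target and at -0.13 for both adhesion genes, whose adjusted p in ASO 4 against saline was 0.558 for Nrxn3 and 0.675 for Pcdh9.

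The close relatives of these genes did not pass the test. Of 13 neurexins, neuroligins and partners, 1 fell (7.69%, against 0.197% of all genes tested), Nrxn3 itself, with a list median of -0.01. Nrxn2 averaged 337.9 ± 12.5 CPM in ASO 1 and 326.9 ± 17.9 CPM in ASO 4 (SD, n = 3 and 5; 0.05 on the log2 scale, edgeR adjusted p = 0.88). Of 9 delta protocadherins, 1 fell (11.1%), Pcdh9, with a median of -0.10. Of 12 catenins and cadherins 1 fell (8.33%), Ctnna2, which codes for the neuronal alpha-catenin that ties cadherins to actin. Nrxn2 is 1 example and does not stand for its list. At an unadjusted edgeR p under 0.05 were 5 of the 13, 2 of the 9 and 4 of the 12, called members included. Of all 19246 genes tested, 1705 were. Smaller changes in the relatives can therefore not be set aside. Ctnna2 had 119.0, 139.6 and 138.3 CPM in ASO 1 and 155.5 to 167.7 CPM in ASO 4, with no overlap, and fell by 0.29 ± 0.0624 (SE; edgeR adjusted p = 0.0167; 0.347 without ASO 1 replicate 1). Efna5, a ligand of the ephrin receptors, and Nrcam, an immunoglobulin-family adhesion molecule of axons, also fell and were chosen after their values were seen. Efna5 had 19.3, 20.2 and 20.2 CPM in ASO 1 and 25.6 to 30.3 CPM in ASO 4, with no overlap, and fell by 0.43 ± 0.0692 (SE; edgeR adjusted p = 0.000398). Nrcam had 219.9, 217.2 and 223.2 CPM in ASO 1 and 261.2 to 283.7 CPM in ASO 4, and fell by 0.33 ± 0.044 (SE; edgeR adjusted p = 1.55e-05).

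The falls of Mvb12b, Itsn1 and Itm2b passed in all 17 settings tried, like those of Nrxn3 and Pcdh9. Mvb12b, a subunit of the ESCRT-I complex that sorts ubiquitinated cargo into multivesicular bodies, had 109.1, 121.9 and 111.6 CPM in ASO 1 and 191.7, 179.3, 173.1, 184.8 and 184.2 CPM in ASO 4, against 164.7 to 176.0 CPM in saline. It fell by 0.68 ± 0.0496 on the log2 scale (SE; edgeR adjusted p = 3.71e-12). The lowest ASO 4 library lay above the highest ASO 1 library by more than either group's SD. Itsn1, a scaffold of clathrin-mediated endocytosis, had 103.3, 122.0 and 104.4 CPM in ASO 1 and 165.3, 155.0, 154.3, 184.2 and 160.0 CPM in ASO 4, and fell by 0.57 ± 0.0639 (SE; edgeR adjusted p = 2.15e-07). It was the 1 member of 16 endocytic scaffold genes to pass (6.25%, against 0.197% of all genes tested that were lower). Its paralogue Itsn2 averaged 39.7 ± 0.551 CPM in ASO 1 and 40.8 ± 1.48 CPM in ASO 4 (adjusted p = 0.87). Itm2b, whose product BRI2 is cleaved by furin and is mutated in familial British and Danish dementia, had 460.8, 516.9 and 471.9 CPM in ASO 1 and 651.6, 666.4, 709.2, 731.8 and 736.5 CPM in ASO 4, and fell by 0.53 ± 0.0535 (SE; edgeR adjusted p = 2.04e-08). None of the 43 lysosomal genes passed in this comparison, with a median log2 fold change of 0.06, and none of 18 V-ATPase subunits did, with a median of 0.00.

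**Figure D2:**
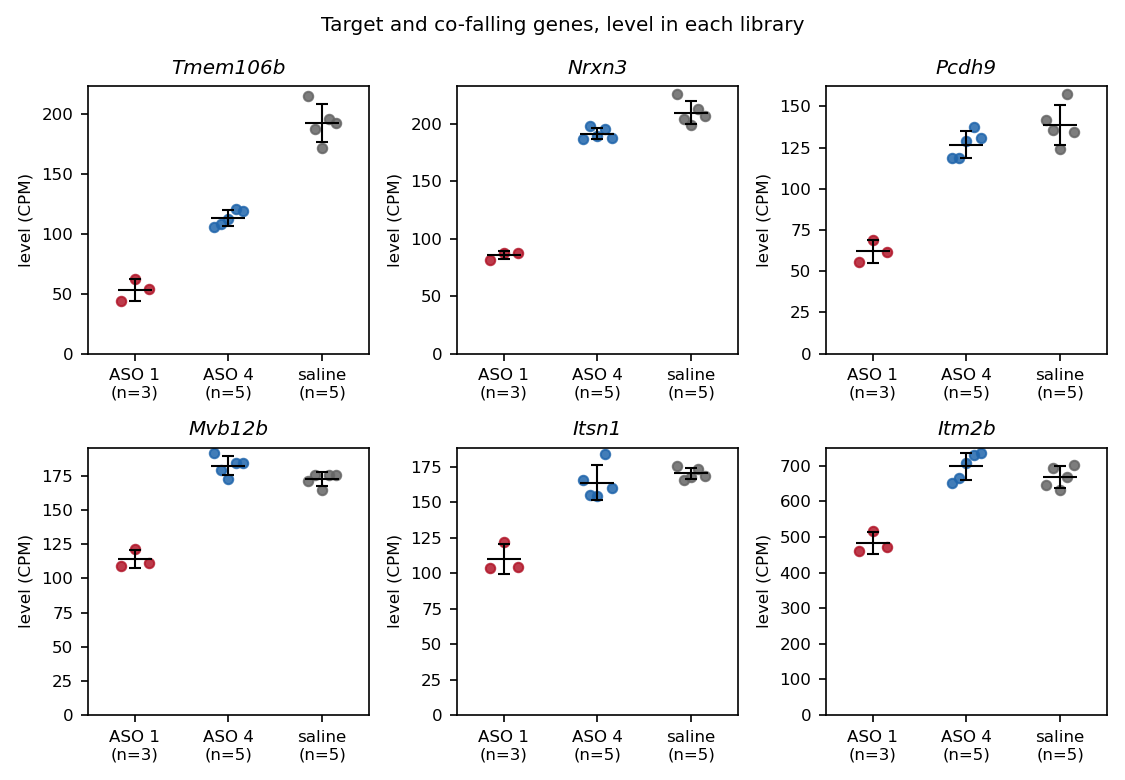
CPM per library (y axis, from 0) of Tmem106b and 5 other genes lower in ASO 1, for ASO 1, ASO 4 and saline (x axis); points are libraries, the long bar is the mean and the whiskers the SD. In each panel all ASO 1 libraries lie below all others, and for the genes other than Tmem106b the ASO 4 libraries overlap or lie close to the saline range.

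The remaining named falls were of mixed function. Pibf1, a centrosomal protein, averaged 5.90 ± 0.277 CPM in ASO 1 and 10.4 ± 0.363 CPM in ASO 4 (log2 fold change -0.81, edgeR adjusted p = 1.68e-07). Cntln, also of the centrosome, averaged 9.21 ± 0.68 CPM in ASO 1 and 14.6 ± 0.51 CPM in ASO 4 (-0.66, adjusted p = 1.19e-05). Abl1, a tyrosine kinase of the cytoskeleton and nucleus, averaged 59.0 ± 3.23 CPM in ASO 1 and 80.0 ± 1.86 CPM in ASO 4 (-0.44, adjusted p = 3.43e-06). None of these 3 overlapped between the groups. Slmap, Epha3, Zfp867 and Map10 fell by 0.45, 0.62, 0.45 and 0.47, and each lost its call without ASO 1 replicate 1, at edgeR adjusted p = 0.0669, 0.173, 0.259 and 0.334 in that order. Epha3 also lost it without ASO 1 replicate 3 (adjusted p = 0.123) or ASO 4 replicate 3 (0.066), and Map10 without ASO 1 replicate 2 (0.17) or ASO 4 replicate 1 (0.0557), 3 (0.103) or 4 (0.0964). A set of 5 falls, Nrxn3, Pcdh9, Mvb12b, Itsn1 and Itm2b, passed in all 17 settings, with log2 fold changes of -1.13, -0.99, -0.70, -0.60 and -0.52 in that order without the libraries above 5 CPM of Pmch and of -1.17, -1.10, -0.67, -0.61 and -0.58 among those libraries only.

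The genes lower in ASO 1 mostly spanned long stretches of genome, which was not used to choose them. Counted from start to end with introns, their median span was 138 kb, against 13.9 kb for the genes higher in ASO 1 and 18.6 kb for all tested genes with a position. Of the 38 falls, 24 spanned more than 100 kb, as did 2 of the 47 rises and 12.7% of all tested genes. Of the falls, 5 exceeded 500 kb, and none of the rises did, against 1.15% of all tested genes. Nrxn3 covers 1612 kb of chromosome 12, Ctnna2 1098 kb of chromosome 6 and Pcdh9 877 kb of chromosome 14. Some falls were short. Map10 with 3.54 kb, Zfp867 with 11.3 kb, Iffo1 with 16.5 kb and Elk1 with 17.2 kb lay below the median of all tested genes. Tmem106b with 19.5 kb and Itm2b with 23.1 kb lay little above it. Of 32 very long genes listed, 3 fell (Nrxn3, Pcdh9 and Ctnna2), which is 9.38%, against 0.197% of all genes tested. All 3 had also fallen with Tmem106b in earlier results on these libraries, known when the list was chosen. This share is therefore not independent evidence. The other 29 did not pass, 3 of the 32 point estimates were above 0, and the list median was -0.13. The count was 2 without the libraries above 5 CPM of Pmch and 2 among them only. Fhit, a tumour suppressor gene that spans 1612 kb of chromosome 14, had 2.35, 2.58 and 2.32 CPM in ASO 1 and 2.45, 3.09, 3.02, 3.41 and 2.51 CPM in ASO 4 (log2 fold change -0.25, edgeR adjusted p = 0.627), both below the 3.69 to 4.57 CPM of saline.

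**Figure D3:**
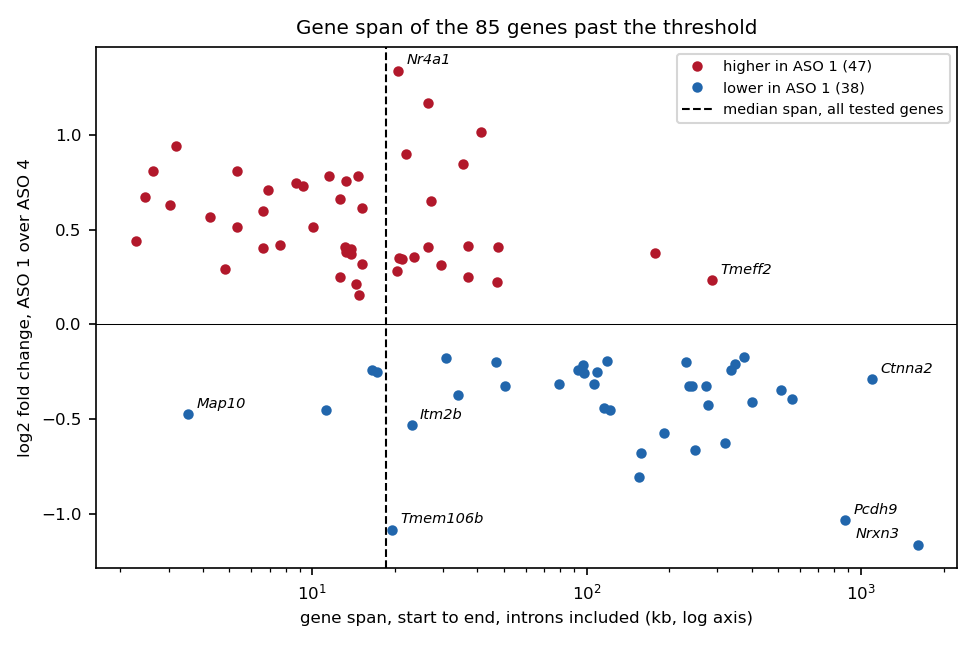
Gene span in kb (x axis, log scale, introns included) against the log2 fold change of ASO 1 over ASO 4 (y axis) for the 85 genes past the threshold; red points are higher and blue points lower in ASO 1, and the dashed line is the median span of all tested genes, 18.6 kb. Most blue points lie right of the line, Nrxn3 at 1612 kb being the farthest, and most red points lie left of it.

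Nr4a1 had the highest log2 fold change of the genes higher in ASO 1, and promoters of Nr4a1, Per1, Egr4, Gpr3 and Dusp5 are shown because a short motif recurred in the promoters of these rises. Each window is 100 bases of the RefSeq GRCm38.p6 sequence around a match, on the gene's strand, with TGACG or its reverse complement CGTCA in capitals. TGACG is the core of the cyclic AMP response element, which CREB family proteins bind. The windows are chr15:101266746-101266845 (forward strand) for Nr4a1, chr11:69099974-69100073 (forward) for Per1, chr6:85513645-85513744 (reverse) for Egr4, chr4:133212537-133212636 (reverse) for Gpr3 and chr19:53529044-53529143 (forward) for Dusp5.
Nr4a1: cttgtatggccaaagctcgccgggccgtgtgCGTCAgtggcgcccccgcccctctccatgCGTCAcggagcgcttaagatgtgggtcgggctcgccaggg
Per1: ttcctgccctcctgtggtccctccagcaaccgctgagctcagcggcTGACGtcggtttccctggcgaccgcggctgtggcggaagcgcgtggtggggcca
Egr4: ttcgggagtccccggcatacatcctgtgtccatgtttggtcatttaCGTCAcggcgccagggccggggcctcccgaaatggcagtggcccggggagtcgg
Gpr3: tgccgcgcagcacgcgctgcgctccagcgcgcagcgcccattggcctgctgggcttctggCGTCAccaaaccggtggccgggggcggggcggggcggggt
Dusp5: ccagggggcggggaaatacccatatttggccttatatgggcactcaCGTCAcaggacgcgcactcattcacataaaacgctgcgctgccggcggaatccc

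Searched on both strands over the 300 bases around each start site, TGACG was in 23 of 42 promoters of the genes higher in ASO 1 (54.8%), in 11 of 44 promoters of the genes lower (25%) and in 6837 of 32851 promoters of all genes (20.8%). It was in 14 of 25 promoters of the immediate early list (56%). The promoters of the rises were also rich in G and C, with a median of 64.7% and 23 CG dinucleotides, against 62.0% and 19.5 for the falls and 52.7% and 7 for all promoters. The promoters belonged to 35 of the genes higher and 33 of the genes lower. These shares were not tested, nor was any part of base composition in them. The full palindrome TGACGTCA was in 1 of the 42 promoters (2.38%), against 1.79% of all. TGACGCAA was also in 1 of the 42 (2.38%), against 0.49% of all. The CArG box, CC and GG around a run of A or T, was in 1 (2.38%), against 1.63% of all. A match describes the letters only, and the windows were chosen after the gene values were seen.

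Nr4a1, an orphan nuclear receptor and immediate early gene whose promoter is shown above, had 167.1, 151.3 and 166.0 CPM in ASO 1 and 48.9, 85.8, 76.7, 37.3 and 68.1 CPM in ASO 4, against 82.3, 78.8, 57.9, 173.1 and 153.0 CPM in saline. ASO 1 and ASO 4 did not overlap, but saline replicates 4 and 5 were as high as ASO 1 and the other saline libraries were in the ASO 4 range. The log2 fold change of ASO 1 over ASO 4 was 1.34 ± 0.281 (SE; edgeR adjusted p = 0.0116), and without ASO 1 replicate 1 it was 1.31 with an adjusted p of 0.0808. Against saline, Nr4a1 stood at 0.57 in ASO 1 and -0.77 in ASO 4, and neither passed (adjusted p = 0.383 and 0.364). Per1, a clock repressor that is also induced by cyclic AMP signals, had 151.0, 137.1 and 170.5 CPM in ASO 1 and 92.9, 91.4, 79.7, 89.4 and 91.1 CPM in ASO 4, against 101.8, 94.2, 89.4, 139.0 and 139.1 CPM in saline. It rose by 0.78 ± 0.131 relative to ASO 4 (SE; edgeR adjusted p = 0.000723), with saline spread between the groups. Sik1, a salt-inducible kinase that restrains CREB coactivators, had 28.7, 35.8 and 28.4 CPM in ASO 1 and 16.8, 20.5, 16.5, 18.1 and 18.4 CPM in ASO 4, and rose by 0.78 ± 0.115 (SE; edgeR adjusted p = 8.33e-05). Gpr3, a receptor that couples to Gs and raises cyclic AMP without a known need for ligand, had 12.5, 9.47 and 11.5 CPM in ASO 1 and 6.29, 6.48, 5.27, 5.14 and 5.74 CPM in ASO 4, and rose by 0.94 ± 0.145 (SE; edgeR adjusted p = 0.000194).

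**Figure D4:**
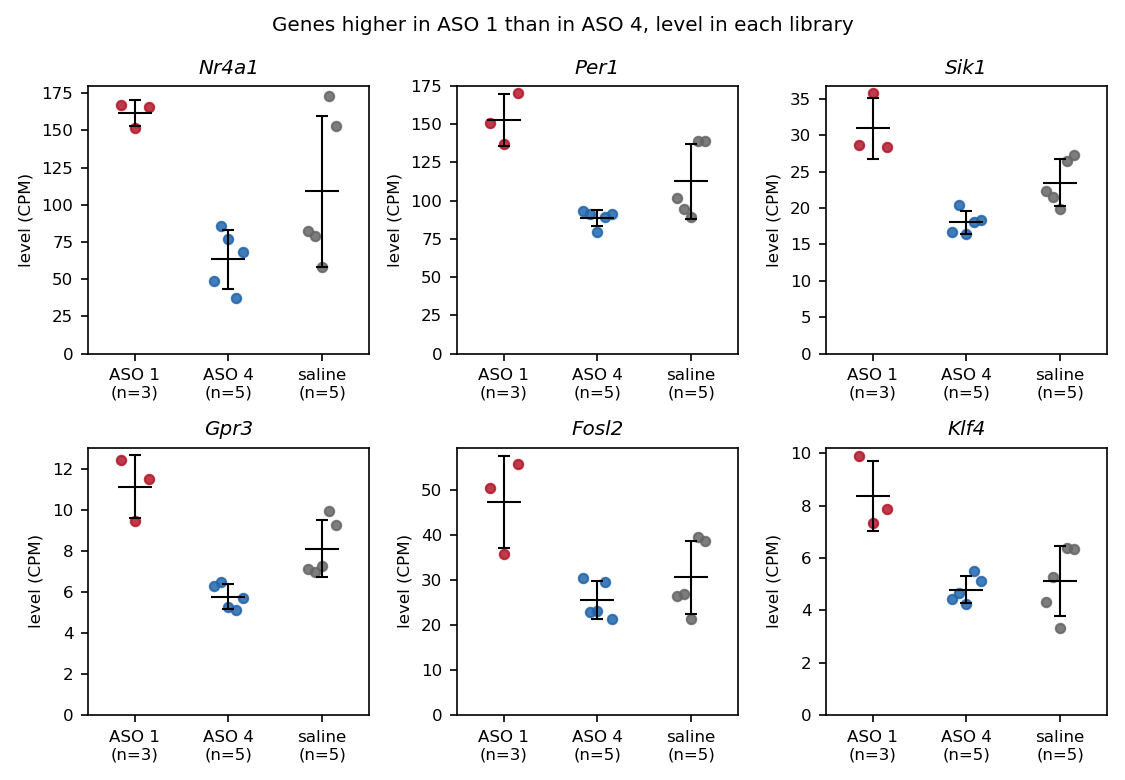
CPM per library (y axis, from 0) of 6 genes higher in ASO 1 than in ASO 4, for ASO 1, ASO 4 and saline (x axis); points are libraries, the long bar is the mean and the whiskers the SD. ASO 1 lies above ASO 4 without overlap in each panel, and the saline libraries lie between or across the groups, as for Nr4a1 with 57.9 to 173.1 CPM.

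Of the 18 immediate early genes, 4 rose (Nr4a1, Nr4a3, Fosl2 and Egr4), none fell and 14 did not pass, with a median log2 fold change of 0.60. The 4 are 22.2% of the list, against 0.244% of all genes tested that were higher. The list was chosen with earlier results of these data known. Fosl2, a subunit of AP-1, had 50.5, 35.8 and 55.7 CPM in ASO 1 and 30.5, 22.8, 23.1, 29.6 and 21.4 CPM in ASO 4 (0.90 ± 0.197 SE; edgeR adjusted p = 0.0176). Egr4, a zinc finger factor of the EGR family, had 28.9, 23.8 and 27.0 CPM in ASO 1 and 15.9, 19.6, 17.1, 13.8 and 16.6 CPM in ASO 4 (0.67 ± 0.138 SE; adjusted p = 0.00836). Neither overlapped between the groups, whereas Nr4a3 did, with 32.997, 22.2 and 33.6 CPM in ASO 1 and 17.3, 11.0, 12.01, 22.6 and 11.7 CPM in ASO 4 (1.02 ± 0.235 SE; adjusted p = 0.0285). Without ASO 1 replicate 3 or ASO 4 replicate 2, 3 or 5, the adjusted p of Fosl2 was 0.129, 0.0531, 0.0574 or 0.0552 and that of Nr4a3 was 0.129, 0.106, 0.106 or 0.0838, in that order. Summed over the 18 genes, ASO 1 had 1940.2, 1539.7 and 1682.6 CPM and ASO 4 had 1024.3, 1234.6, 1275.9, 896.2 and 1044.0 CPM, against 1339.6, 1256.3, 1122.4, 1764.6 and 1526.4 CPM in saline. ASO 1 was above ASO 4 in every library, and saline overlapped both. The list median was 0.34 for ASO 1 and -0.26 for ASO 4 against the shared saline libraries, and no member passed in either. The count of 4 fell to 0 without ASO 1 replicate 1 and to 2 without ASO 1 replicate 3 or ASO 4 replicate 2, 3 or 5. It was also 0 without the libraries above 5 CPM of Pmch and 0 among them alone.

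The best-known activity genes were among the 14 that did not pass, and ASO 4 libraries differed among themselves for them. Fos had 52.5, 51.4 and 51.6 CPM in ASO 1 and 15.5, 38.5, 36.0, 19.5 and 33.7 CPM in ASO 4 (log2 fold change 0.84, edgeR adjusted p = 0.426). Arc, which codes for a capsid-forming protein of dendrites, had 464.0, 389.8 and 323.1 CPM in ASO 1 and 83.1, 221.5, 240.9, 81.6 and 182.6 CPM in ASO 4 (1.27, adjusted p = 0.148). Junb had 79.5, 69.6 and 73.5 CPM in ASO 1 and 23.9, 67.9, 61.4, 25.9 and 62.5 CPM in ASO 4 (0.60, adjusted p = 0.52). In all 3 genes, ASO 4 replicates 1 and 4 lay far below the other ASO 4 libraries. Npas4, a neuronal activity factor, had 27.7, 23.5 and 19.4 CPM in ASO 1 and 13.6, 37.6, 34.8, 11.9 and 31.0 CPM in ASO 4, so that the same replicates were below and the other 3 above every ASO 1 library (-0.15, adjusted p = 0.951). Btg2, Homer1 and Npas4 were the 3 list members with a log2 fold change below 0. Whether the hour of death or handling differed between the groups cannot be told from the labels.

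The other rises named were of mixed function. The Kruppel-like factors Klf4, Klf2 and Klf10 rose by 0.81, 0.81 and 0.73 on the log2 scale (edgeR adjusted p = 0.00458, 0.00566 and 0.00525 in that order). Klf4 averaged 8.37 ± 1.34 CPM in ASO 1 and 4.79 ± 0.516 CPM in ASO 4, against 5.13 ± 1.33 CPM in saline (SD, n = 3, 5 and 5). Trib1, a pseudokinase scaffold for protein degradation, had 34.2, 28.0 and 29.6 CPM in ASO 1 and 15.2 to 21.4 CPM in ASO 4 (0.75 ± 0.142 SE; edgeR adjusted p = 0.00458). Dusp5, a nuclear phosphatase of ERK, had 20.3, 13.97 and 16.4 CPM in ASO 1 and 7.94 to 11.5 CPM in ASO 4 (0.76 ± 0.139 SE; adjusted p = 0.00283). Spry4, a feedback inhibitor of receptor tyrosine kinases chosen after its values were seen, had 23.9, 22.2 and 21.4 CPM in ASO 1 and 13.8 to 16.3 CPM in ASO 4 (0.61 ± 0.109 SE; adjusted p = 0.00165). The groups did not overlap for Trib1, Dusp5 or Spry4. Rbm3, a cold-inducible RNA-binding protein, had 4.82, 5.37 and 3.70 CPM in ASO 1 and 2.16 to 3.62 CPM in ASO 4 (0.71 ± 0.159 SE; adjusted p = 0.0224). Without ASO 1 replicate 1 the adjusted p was 0.113 for Dusp5, 0.129 for Klf4, 0.107 for Klf2, 0.117 for Klf10, 0.0963 for Trib1, 0.148 for Fosl2, 0.125 for Egr4, 0.247 for Nr4a3 and 0.171 for Rbm3, while Per1, Sik1 and Gpr3 kept their call whichever single library was left out. Rbm3 also lost its call without ASO 1 replicate 2 (0.311) or ASO 4 replicate 1 (0.0906), 2 (0.0812) or 4 (0.0503).

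Among clock genes, 2 of 16 rose (Per1 and Nfil3), with a list median of 0.01. The 2 are 12.5% of the list, against 0.244% of all genes tested. Nfil3, a repressor of D-box genes, had 15.1, 12.8 and 12.97 CPM in ASO 1 and 9.59, 10.6, 10.9, 10.2 and 11.1 CPM in ASO 4, with no overlap, and rose by 0.37 ± 0.0764 (SE; edgeR adjusted p = 0.00854; 0.264 without ASO 1 replicate 1). The other 14 did not pass. Of these, Dbp averaged 101.6 ± 3.6 CPM in ASO 1 and 102.1 ± 12.2 CPM in ASO 4 (log2 fold change -0.01, interval -0.20 to 0.18), Nr1d1 averaged 160.8 ± 3.9 CPM in ASO 1 and 164.3 ± 10.9 CPM in ASO 4 (-0.03, interval -0.19 to 0.13), and Arntl averaged 33.8 ± 2.62 CPM in ASO 1 and 35.2 ± 4.33 CPM in ASO 4 (-0.06, interval -0.22 to 0.10).

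Of 20 genes of cholesterol synthesis and uptake, 2 rose (10%, against 0.244% of all genes tested), Cyp51 among them, and none fell. The median log2 fold change was 0.14, with 20 point estimates above 0. Cyp51, the lanosterol demethylase, had 79.0, 90.2 and 86.2 CPM in ASO 1 and 68.2, 65.8, 63.5, 76.6 and 59.4 CPM in ASO 4, against 65.7 to 82.9 CPM in saline, and rose by 0.36 ± 0.0703 (SE; edgeR adjusted p = 0.00581). ASO 1 and ASO 4 were apart from each other and both overlapped saline. Sqle, squalene epoxidase, did not pass, with a log2 fold change of 0.26 (adjusted p = 0.0504). Without ASO 1 replicate 2 the call of Cyp51 did not hold (0.31, adjusted p = 0.126). Gch1, the rate-limiting enzyme for tetrahydrobiopterin, the cofactor of monoamine synthesis, was the 1 of 13 tested monoamine genes to rise (7.69%). It had 2.26, 3.34 and 2.32 CPM in ASO 1 and 1.43, 1.36, 1.39, 1.83 and 1.43 CPM in ASO 4, against 1.27 to 1.84 CPM in saline (0.85 ± 0.166 SE; edgeR adjusted p = 0.00525; 0.212 without ASO 1 replicate 2).

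**Figure D5:**
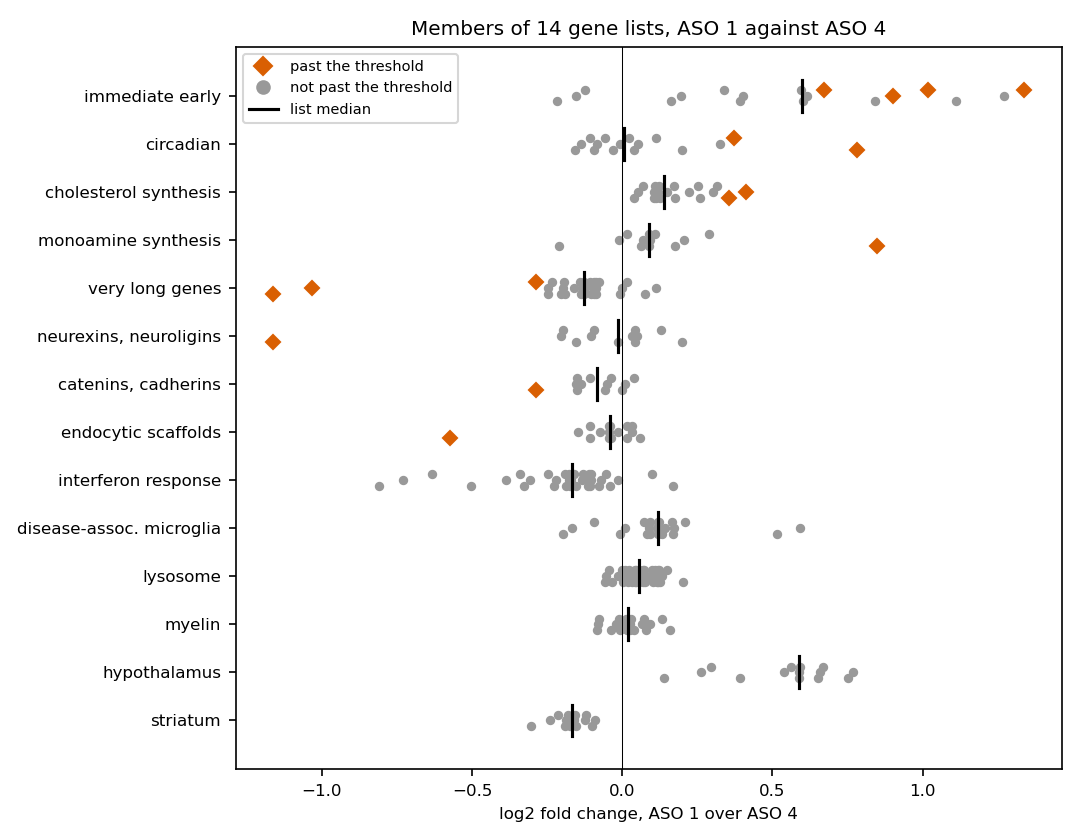
Log2 fold change of ASO 1 over ASO 4 (x axis) for the tested members of 14 gene lists (y axis); orange diamonds passed the threshold, grey points did not, and the black bar is the list median. The immediate early list has its median at 0.60 with 4 members past the threshold, while the hypothalamus list sits at 0.59 and the striatum list at -0.17 with no member past it.

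Neither without the libraries above 5 CPM of Pmch nor among them only did any member of the clock, cholesterol, monoamine or catenin and cadherin lists pass, whereas Nrxn3, Pcdh9 and Itsn1 passed in both.

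Most gene lists held no call: of 50 lists, 39 had none. None of 34 interferon-response genes passed, with a median log2 fold change of -0.17 and 2 point estimates above 0. Ifit3, an interferon-induced antiviral protein, averaged 8.75 ± 1.39 CPM in ASO 1 and 11.1 ± 1.11 CPM in ASO 4, against 8.68 ± 0.914 CPM in saline (edgeR adjusted p = 0.439). None of 23 tested genes of disease-associated microglia passed, with a median of 0.12. Cst7, a cystatin that such microglia make, had 22.1, 8.52 and 7.46 CPM in ASO 1 and 3.75, 6.51, 13.9, 4.73 and 14.3 CPM in ASO 4, against 2.51 to 5.98 CPM in saline, so single libraries of both ASO groups were high (adjusted p = 0.799). None of the 22 myelin genes, 15 astrocyte identity genes, 12 inhibitory neuron genes, 16 synaptic vesicle genes or 20 endoplasmic reticulum and integrated stress genes passed. The 14 hypothalamic genes tested had a median of 0.59, all above 0, and the 14 striatal genes a median of -0.17, all below 0, and none passed. Their part in the other results was not tested beyond the settings that left those libraries out or took both lists as covariates, under which 105 genes passed, 61 higher and 44 lower.

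Saline, at which neither ASO is present, placed the 85 genes. Of the 47 higher in ASO 1, the saline mean was between the groups and nearer to ASO 4 for 30, between them and nearer to ASO 1 for 16, and above both for Tmeff2. Of the 38 lower in ASO 1, it was between the groups but nearer to ASO 4 for 24, nearer to ASO 1 for 1 (Map10), and above both for 13, Tmem106b among them. These positions rest on the same ASO 1 and ASO 4 libraries that chose the genes and are a description. In their own comparisons, which share the saline libraries, ASO 1 had 44 genes past the threshold (0.229%), 10 higher (0.052%) and 34 lower (0.177%), and ASO 4 had 3 (0.0156%), all lower, namely Tmem106b, Tmeff2 and Nudcd1. With the regional covariates these counts were 25 for ASO 1 and 2 for ASO 4, and without the libraries above 5 CPM of Pmch ASO 4 had 2. In both settings Tmeff2 and Nudcd1 passed in ASO 4. Tmem106b did not, at log2 fold changes of -0.66 with the covariates and -0.82 without those libraries. The pair was chosen on Tmem106b, so its pass or failure is not read as a result. Every ASO 4 library held less Tmem106b than every saline library. At an unadjusted edgeR p under 0.05, ASO 4 against saline had 1712 of 19246 genes, and ASO 1 against ASO 4 had 1705. An unadjusted threshold also passes genes where nothing differs, so these are not counted as changes.

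Tmeff2, a transmembrane protein with follistatin and EGF-like domains, was lower in ASO 4 than in both ASO 1 and saline. It had 69.4, 70.0 and 64.4 CPM in ASO 1 and 54.8, 60.8, 56.3, 56.7 and 59.7 CPM in ASO 4, against 74.3, 75.5, 70.4, 78.2 and 74.4 CPM in saline, so the 3 groups did not overlap. Its log2 fold change was 0.24 ± 0.0478 for ASO 1 over ASO 4 (SE; edgeR adjusted p = 0.00761), -0.13 for ASO 1 against saline (adjusted p = 0.216) and -0.37 for ASO 4 against saline (adjusted p = 1.81e-06). The first of these lost its call without ASO 1 replicate 1 (0.22, adjusted p = 0.108) or replicate 2 (0.21, adjusted p = 0.125). Tmeff2 averaged 57.7 ± 2.47 CPM in ASO 4 (SD, n = 5) and 60.0 ± 3.43 CPM in RTR113609, another of the treatments (SD, n = 4), and the ranges of these groups overlapped. Nudcd1, a NudC-domain protein, was low in both groups, with 9.49, 10.7 and 11.8 CPM in ASO 1 and 9.88, 8.45, 9.21, 10.6 and 11.5 CPM in ASO 4, against 15.6 to 18.3 CPM in saline. ASO 1 and ASO 4 overlapped for it (log2 fold change 0.11, interval -0.11 to 0.32), and against saline it fell by 0.62 in ASO 1 and by 0.72 in ASO 4 (edgeR adjusted p = 0.00142 and 2.35e-05; 0.0644 for ASO 1 without its replicate 1). The call in ASO 1 was also lost without the libraries above 5 CPM of Pmch, at a log2 fold change of -0.47.

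Of 15 genes that had fallen with Tmem106b in earlier results on these libraries, 8 fell in ASO 1 relative to ASO 4, 1 rose (Tmeff2) and 6 did not pass. Because the list came from these samples, its count is not independent evidence. The 8 falls were 4 without the libraries above 5 CPM of Pmch and 7 among them only, and Tmeff2 passed in neither. Beside Nudcd1 and Fhit, the members that did not pass were Kcnq5, Rbm5, Golgb1 and Col19a1. Kcnq5, a voltage-gated potassium channel subunit, had 82.6, 76.1 and 98.3 CPM in ASO 1 and 108.9, 104.0, 113.7, 93.3 and 90.8 CPM in ASO 4, an overlap (log2 fold change -0.26, edgeR adjusted p = 0.281). Rbm5, a splicing regulator, had 87.2, 79.9 and 80.6 CPM in ASO 1 and 93.4 to 99.4 CPM in ASO 4, with no overlap (-0.22, adjusted p = 0.181). Golgb1, a Golgi tether, averaged 109.0 ± 2.06 CPM in ASO 1 and 110.8 ± 5.16 CPM in ASO 4, and Col19a1, a basement membrane zone collagen, averaged 3.36 ± 0.243 CPM in ASO 1 and 3.64 ± 0.506 CPM in ASO 4 (adjusted p = 0.937 and 0.85).

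The other treatments of the series showed how some of the falls ran across ASOs with different Tmem106b levels, given as group means with no test. Tmem106b averaged 53.3 CPM in ASO 1, 57.9 CPM in RTR59155, 68.2 CPM in RTR113609, 73.8 CPM in RTR113841, 76.2 CPM in ASO 3, 89.8 CPM in ASO 2, 97.1 CPM in RTR113643 and 112.9 CPM in ASO 4, against 191.9 CPM in saline. Nrxn3 in the same order averaged 85.5, 86.0, 122.8, 90.7, 183.6, 103.2, 105.1 and 191.3 CPM, against 209.5 CPM in saline. The order of Nrxn3 thus differed from that of its level of Tmem106b, with ASO 3 near ASO 4 for Nrxn3 but below ASO 2 for Tmem106b. Itm2b in that order averaged 483.2, 490.6, 688.3, 546.1, 727.0, 619.6, 561.7 and 699.1 CPM, against 669.1 CPM in saline, again with ASO 3 and ASO 4 highest. Other falls ran otherwise. Ctnna2 in that order averaged 132.3, 128.0, 99.7, 148.4, 50.7, 154.9, 135.5 and 161.4 CPM, against 174.1 CPM in saline. Ctnna2 was thus lowest in ASO 3. Pcdh9 averaged 78.6 CPM in RTR113609, against 138.6 CPM in saline, whereas Itm2b in RTR113609 was near saline. Nr4a1 was high in RTR113841 as well as in ASO 1, with 175.9 and 161.5 CPM, and averaged 51.2 to 88.8 CPM in the 6 other treatments, against 109.0 CPM in saline. It was not alone in this. In RTR113841 and ASO 1, in that order, Per1 averaged 149.5 and 152.8 CPM, Sik1 32.1 and 31.0 CPM and Gpr3 10.8 and 11.2 CPM. Gch1 was less alike, with 1.97 and 2.64 CPM. These rises were thus not particular to ASO 1.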

How the data were processed

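Per the labels, polyadenylated RNA of mouse brain was sequenced, and the submitters' processing notes name GSNAP and the GRCm38 build. No source used here gives versions, the counting tool or the strand setting, so genes that overlap on opposite strands cannot be told apart. The deposited files give whole-number counts over exons and RPKM, as the authors computed it; counts were 86.1 to 88.2% of the total that the deposited RPKM implies. Counts of all 39 libraries, in 9 groups, were fitted in 1 design with edgeR 4.0.16 (quasi-likelihood, TMM, filterByExpr; R 4.3.3), two-sided, with Benjamini-Hochberg adjustment over 19246 genes at 0.05; SE is the change divided by the root of F. RPKM served for levels per length only. Positions came from GENCODE M21. Members, gene lists and tests were chosen with earlier results of these data known. Genes named by rule are the Tmem106 family, Grn and the 12 largest non-overlapping changes each way at a mean of at least 1 CPM. The rule also takes the earlier co-falling list and up to 4 called members per list. Efna5, Nrcam and Spry4 were chosen after their values were seen. Further genes lie outside the rule and are examples only. Among them are Nrxn2, Itsn2, Fos, Arc, Junb, Npas4, Dbp, Nr1d1, Arntl, Sqle, Ifit3, Cst7 and Stmnd1. Replicate libraries differed beyond counting noise (chi-square per degree of freedom 4.46 to 13.2). On simulated counts for this comparison (19059 genes, 200 changed, all at a mean of at least 1 CPM), 97% of 2-fold changes were recovered. Of smaller, square-root-of-2-fold changes 72% were recovered, with 10 false among 179 calls. Each gene was drawn independently, without the regional differences that many genes share between these libraries. The false calls in the real data can therefore not be read from it. Alternatives were DESeq2 1.42.0, limma 3.58.1 voom, other scaling, no filter, fewer groups, regional covariates and left-out libraries. Some genes are not reported here.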

Additional observations from a re-analysis of the deposited data

Results flagged for a closer look

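In 98 groups of 5 libraries checked, 4 held 1 library far from the other 4, where chance flags about 1 in 20 groups. Gch1 had 1.83 CPM in ASO 4 replicate 4, against 1.36 to 1.43 CPM in the other ASO 4 libraries. Per1 had 79.7 CPM in ASO 4 replicate 3, against 89.4 to 92.9 CPM in the others. Tmem106a had 3.38 CPM in saline replicate 2, against 1.91 to 2.17 CPM in the others, and Hcrt, the hypothalamic orexin precursor, had 0.242 CPM in the same library, against 0.031 to 0.0563 CPM in the others.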

How the results depend on the processing

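The 85 calls between ASO 1 and ASO 4 (47 higher, 38 lower) became 30 (16 and 14) with these 2 groups fitted alone, 5 (0 and 5) without the libraries above 5 CPM of Pmch and 13 (2 and 11) among them only; the second leaves 1 ASO 1 library, assumed to vary like the other groups, and fewer samples enter each of these fits. Leaving out 1 library gave 37 to 91 calls, 17 to 50 higher and 20 to 41 lower. DESeq2 called 116, voom 78 and median-of-ratios scaling 90. The 44 calls of ASO 1 against saline became 101 with DESeq2, 73 without a filter, 27 with 2 groups, 25 with regional covariates, 10 without the libraries above 5 CPM of Pmch, and 20 to 142 with 1 library left out. The 3 calls of ASO 4 against saline became 8 with DESeq2, 6 without a filter, 2 without the libraries above 5 CPM of Pmch, 2 with regional covariates and 3 to 5 with 1 library left out (5 without saline replicate 2). The 4 immediate early calls became 7 without a filter, 0 without the libraries above 5 CPM of Pmch, 0 among them only and 0 to 4 with 1 library left out. Apart from the smaller number of samples where libraries or groups were dropped, the cause was not tested. No change between ASO 1 and ASO 4 among the 85 reversed in any of the 17 settings. For the 82 genes without overlap between the groups, leaving libraries out could hardly have reversed the direction. No paired analysis was possible because the labels give no replicate numbers. ASO 4 replicate 4, at 19.7 M reads, is the shallowest library and limits genes of low count most.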
